A study of Mus musculus with 8 samples.

Results

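Olfactory and vomeronasal receptor genes lie in large clusters that are silent in most tissues, and the sites described here are the CpG sites that fall in those genes. Reduced representation hydroxymethylation profiling (RRHP) reads 5-hydroxymethylcytosine (5hmC), an oxidised form of methylcytosine, at the CpG of CCGG motifs. A site was counted as a receptor site when the authors' promoter, exon or intron column gave it a symbol that starts with Olfr, Vmn1r or Vmn2r and it lay on an autosome. This took 1633 of 719393 autosomal genic sites and of 1497075 sites in all, with 0 such sites on chromosome X. There were 509 Olfr sites in 177 symbols, 36 Vmn1r sites in 19 symbols and 1088 Vmn2r sites in 86 symbols. Of these sites, 299 were exonic, 1188 intronic and 146 in promoters alone, and 14 also carried the symbol of another gene, such as the promoters of the interferon-inducible GTPases Tgtp2 and Ifi47 in introns credited to Olfr56. The other 717760 autosomal genic sites served for comparison.

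Olfr genes encode the odorant receptors of the main olfactory epithelium, whereas Vmn1r and Vmn2r genes encode the pheromone receptors of the vomeronasal organ. Each sensory neuron expresses a single odorant receptor allele, and the remaining receptor genes stay packed in heterochromatin. In many tissues, the brain among them, 5hmC is found in the bodies of transcribed genes.

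The 2 populations compared were sorted by fluorescence from brains of C57BL/6 mice at postnatal day 60. Progenitors of the oligodendrocyte lineage (adult OPC, aOPC) carried the Pdgfra-H2BEGFP reporter, in which the Pdgfra locus drives EGFP fused to a histone, and adult oligodendrocytes (aOL) carried Plp-EGFP, driven by the promoter of a myelin gene. Each population had 2 RRHP libraries and 2 RNA libraries, numbered replicates 2 and 3, and DNA and RNA came from 1 cell pellet. The populations came from different reporter lines, so that line and population cannot be told apart, and the labels do not say how many animals stand behind a library. P-values therefore measure the spread between these libraries. Since the aOL RRHP samples have Pdgfra named in their tissue label, their titles decided the group. For RNA, aOL titles give the stage as pre-myelinating and the protocol text gives it as myelinating.

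The aOPC RRHP libraries held totals of 7113237 (replicate 2) and 17121440 (replicate 3) counts, and the aOL ones 15923775 (replicate 2) and 27057859 (replicate 3). Levels are given as CPM, a site's count divided by the library total and scaled to 1000000 reads. The shallowest library, aOPC replicate 2, stood apart: its mean level at other genic sites in CpG islands was 0.325 CPM, against 0.126 to 0.177 CPM in the other 3 libraries. In RNA, none of 5 OPC markers or 6 oligodendrocyte markers passed the test (limma, p under 0.01 and adjusted p under 0.05). Of 6 markers of olfactory sensory neurons, Cnga2, Gng13 and Stoml3 were not listed, and Omp, the most specific, had log2 values of 3.42, 5.08, 5.20 and 4.02 in aOPC replicates 2 and 3 and aOL replicates 2 and 3. Among markers of other brain cells, 3 of 4 for neurons, 3 of 3 for astrocytes, 3 of 3 for microglia and 1 of 3 for endothelium were listed, with 0 called. The endothelial marker listed, Cldn5, was at 0.33 and 1.80 in aOPC and at 5.92 and 7.13 in aOL (difference 5.46 ± 0.69, SE; adjusted p = 0.108, limma), and its part in the results was not tested. Marker calls depended on single libraries: with 1 library left out, Cldn5 and markers of OPC, astrocytes and oligodendrocytes were called in some fits. The calls over all genes rose in these fits as well, and 1 library left in a population gives no spread of its own.

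The sites at which the 2 populations differed by test are shown first, each as 42 bases of the GRCm38 reference around the CpG, written 5′ to 3′ on the strand of the site, with the CCGG that MspI cuts in capitals.
Olfr325, exon and promoter, chr11:58581228-58581269, plus strand: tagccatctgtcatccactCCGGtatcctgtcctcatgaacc
Vmn2r-ps54, intron, chr7:41669000-41669041, plus strand: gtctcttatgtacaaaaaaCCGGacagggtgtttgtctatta
Vmn2r58, intron, chr7:41840303-41840344, plus strand: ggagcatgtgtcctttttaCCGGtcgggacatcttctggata
Vmn2r81, intron, chr10:79264119-79264160, minus strand: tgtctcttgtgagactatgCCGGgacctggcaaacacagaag
Vmn2r29, promoter, chr7:7278426-7278467, minus strand: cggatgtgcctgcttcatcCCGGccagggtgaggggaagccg
Vmn2r29, intron and promoter, chr7:7277689-7277730, minus strand: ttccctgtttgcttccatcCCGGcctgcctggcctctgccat
Vmn2r27, intron, chr6:124203922-124203963, plus strand: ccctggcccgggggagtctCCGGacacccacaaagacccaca
Olfr56, intron, chr11:49132538-49132579, minus strand: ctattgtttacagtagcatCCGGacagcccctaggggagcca
The first 3 were lower in aOL and the last 5 higher. Within 100 bases, the Vmn2r29 promoter site had 8 CpGs and lay in a CpG island, whereas the sites in Vmn2r81 and Olfr56 had 1 CpG, their own.

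Most receptor genes hold no CCGG and cannot be read by this method. In the RefSeq annotation of GRCm38, 712 of 2043 autosomal receptor genes (34.9%) contained a CCGG, against 96.8% of 19207 other protein-coding genes. The share was 38.8% for protein-coding receptor genes alone, and by family 33.2% for Olfr, 20.2% for Vmn1r and 65.7% for Vmn2r. The median receptor gene model was 945 bases long, against 19555 bases for the other genes, and receptor genes held 3.71 CCGG per 10 kb against 7.69. Their GC content was 38.6% against 43%. Of 6064 strand positions at a CCGG in receptor genes, 42.5% were listed in at least 1 library, against 47.5% in other protein-coding genes. By family, 32.5% were listed for Olfr, 30.4% for Vmn1r and 48.1% for Vmn2r. The families differed in where their sites lay: 1045 of the 1088 Vmn2r sites were intronic, whereas 252 of the 509 Olfr sites were exonic, and Vmn1r genes had 25 exonic sites and 0 intronic ones. Receptor sites rarely lay in CpG islands (1.84%, or 30 sites, against 21.7% of other genic sites), and the 100 bases around them averaged 51.4% GC against 57%.

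Listed receptor sites were not empty, but their mean level was below that of other genic sites in every library. It was 0.522 and 0.467 CPM in aOPC replicates 2 and 3 and 0.451 and 0.487 CPM in aOL replicates 2 and 3. The other genic sites averaged 0.71, 0.731, 0.742 and 0.717 CPM in the same libraries. The ranges of the receptor and the other sites did not overlap across the 4 libraries. As a ratio, receptor sites reached 0.687 ± 0.0684 (SD, n = 2) of the level of other genic sites in aOPC and 0.644 ± 0.0509 (SD, n = 2) in aOL. The 2 populations differed by less than the spread between their libraries. No p-value was attached to these levels, since the family was chosen with earlier results known. The receptor sites were 0.227% of the autosomal genic sites and took 0.138% to 0.167% of the reads at those sites.

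**Figure D1:**
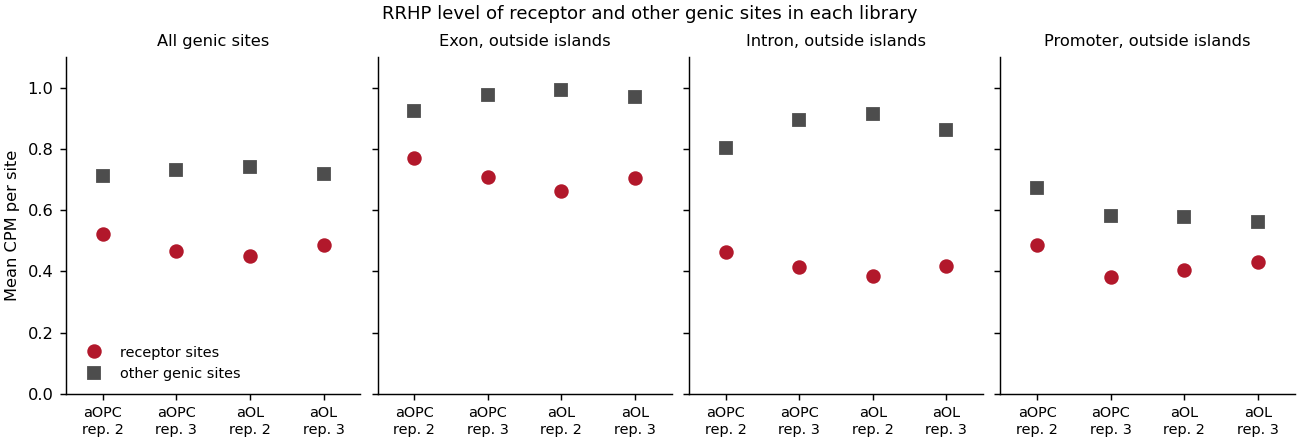
Mean CPM per site (y axis) in each of the 4 RRHP libraries (x axis) for receptor sites (circles) and other genic sites (squares), over all sites and over exon, intron and promoter sites outside CpG islands. In all 4 panels the receptor sites lie below the other genic sites in every library.

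Among listed sites, the difference lay in those with high counts rather than in the number of sites with reads. Positions that were not listed do not enter these shares. Of all strand positions at a CCGG, 42.5% were listed in receptor genes, against 47.5% in other protein-coding genes. At least 1 read was found at 66.9% (95% Wilson interval 64.6 to 69.1%) and 74% (71.9 to 76.1%) of receptor sites in aOPC replicates 2 and 3, and at 72.6% (70.4 to 74.7%) and 84.1% (82.3 to 85.8%) in aOL replicates 2 and 3. These intervals treat sites as independent and do not cover the spread between libraries. Reads from PCR are not independent molecules, so the intervals on read counts given further below cover counting error only. The shares for other genic sites were 69.1%, 74%, 73.7% and 86%. With all libraries subsampled to the smallest total, the shares were 66.9%, 60.4%, 59.4% and 61.9% for receptor sites against 69.1%, 59.9%, 60.5% and 64.8%. The median level was 0.141, 0.175, 0.126 and 0.185 CPM at receptor sites and 0.281, 0.117, 0.126 and 0.185 CPM at the others, so that only in aOPC replicate 2 was the receptor median the lower one. A level of at least 1 CPM was reached by 13%, 11.3%, 11.2% and 12.1% of receptor sites, against 17.6%, 19.4%, 20.8% and 20% of other genic sites. In all 4 libraries together, 110 receptor sites (6.74%) held at least 1 CPM, against 12.8% of the others.

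**Figure D2:**
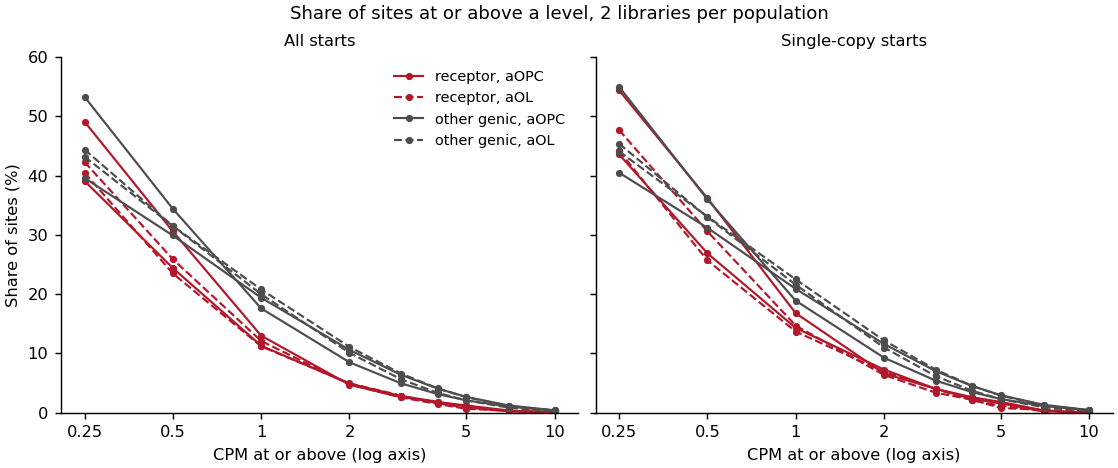
Share of sites in percent (y axis) with at least the CPM on the x axis (log axis), for receptor sites (red) and other genic sites (grey) in the aOPC (solid) and aOL (dashed) libraries, over all sites and over sites with a single-copy start. The curves of the 2 kinds of site interleave at 0.25 CPM, whereas from 1 CPM upwards every receptor curve of the left panel lies below the others, at 11.2 to 13% against 17.6 to 20.8% of sites at 1 CPM.

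Many receptor sites share the start of their read with other sites of the reference. The 50 bases that a read would begin with, starting at the cut in the CCGG, occurred more than once in the reference for 864 receptor sites (52.9%), against 12.3% of other genic sites. The share was 30.3% for Olfr, 41.7% for Vmn1r and 63.9% for Vmn2r sites. For 38 of the 864 sites every copy was itself a receptor site, and the other sites had at least 1 copy elsewhere. The intronic Vmn2r38 site at chr7:9081720 had 374 copies, and the 190 of its strand held between 139 and 220 reads in aOPC replicate 3, where the Vmn2r38 site held 151. In that library the variance of the 190 counts was 1.14 times their mean, where counting error alone gives a variance equal to the mean, and over both strands and the 4 libraries this quotient was 1.03 to 1.31. Among receptor sites whose other copies averaged at least 5 reads on the same strand, the reads were 0.922 to 1 times those of the other copies in the median. How the authors placed reads that align to several places is not given in the sources used here. From these 50 bases, reads at such a site cannot be credited to the receptor gene alone.

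At repeated starts, receptor and other genic sites had near-equal levels, with 0.425, 0.389, 0.377 and 0.404 CPM at 864 receptor sites and 0.4, 0.394, 0.383 and 0.411 CPM at 88125 others. At single-copy starts the gap stayed: 769 receptor sites averaged 0.633, 0.555, 0.534 and 0.581 CPM, against 0.754, 0.778, 0.792 and 0.76 CPM at 629635 other genic sites. The ratio at single-copy starts was 0.776 ± 0.0894 in aOPC and 0.719 ± 0.0641 in aOL (SD, n = 2). The choice to split by repeated starts was made after seeing the data.

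**Figure D3:**
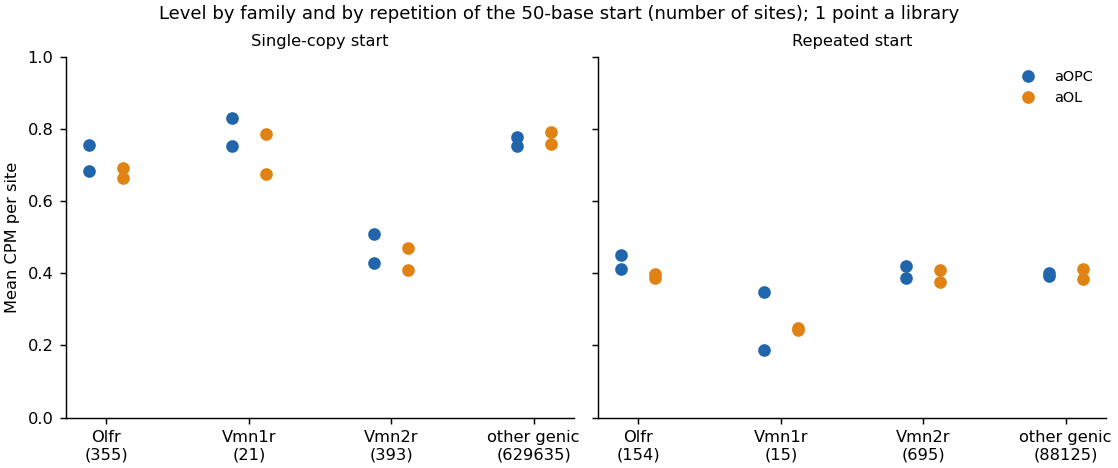
Mean CPM per site (y axis) for Olfr, Vmn1r, Vmn2r and other genic sites (x axis, with the number of sites), each point 1 library, for sites with a single-copy 50-base start and for those whose start is repeated in the reference. With single-copy starts Vmn2r sites lie at 0.408 to 0.51 CPM and other genic sites at 0.754 to 0.792 CPM, whereas with repeated starts both lie near 0.4 CPM.

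Among listed sites, Olfr and Vmn2r did not have the same level. With single-copy starts, the 355 Olfr sites reached 0.941 ± 0.0881 of the other genic level in aOPC and 0.876 ± 0.0515 in aOL (SD, n = 2). The 393 Vmn2r sites reached 0.613 ± 0.0903 and 0.566 ± 0.0721. The 21 Vmn1r sites, at 1.03 ± 0.094 and 0.944 ± 0.129, were too few for a comparison beyond their values. In every library the Vmn2r sites (0.51, 0.428, 0.408 and 0.469 CPM) were below the Olfr sites (0.756, 0.684, 0.665 and 0.693 CPM). This order rests on listed sites. Over every CCGG strand position of RefSeq genes, repeated starts included, Olfr held 0.206, 0.193, 0.183 and 0.193 CPM per position. Vmn2r held 0.23, 0.199, 0.173 and 0.194 CPM, and other protein-coding genes 0.339, 0.353, 0.358 and 0.344 CPM.

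The mix of families differed between introns and exons, so both were compared by family. In introns outside CpG islands, receptor sites with single-copy starts (414 sites) had 0.535 ± 0.116 of the level of other genic introns in aOPC and 0.431 ± 0.0465 in aOL (SD, n = 2). For the 359 Vmn2r sites among them the ratio was 0.478 ± 0.11 and 0.372 ± 0.055, and for the 55 Olfr sites 0.912 ± 0.153 and 0.816 ± 0.00897. In exons outside islands, the 243 receptor sites with single-copy starts, 217 of them Olfr, stood at 0.828 ± 0.0691 and 0.745 ± 0.044. For Olfr and Vmn2r the exon ratio at single-copy starts was below the intron ratio, although in aOPC the libraries' ranges overlapped. It was 0.836 ± 0.0615 and 0.755 ± 0.042 for Olfr, and 0.281 ± 0.174 and 0.251 ± 0.00933 for the 9 Vmn2r exon sites. With repeated starts included, the order turned for Olfr, at 0.805 ± 0.0701 and 0.723 ± 0.0431 in exons against 0.662 ± 0.0829 and 0.61 ± 0.0184 in introns. Receptor promoters outside islands, 140 sites, stood at 0.691 ± 0.0479 and 0.731 ± 0.049 of other promoters outside islands.

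Receptor sites were also compared with other genic sites of the same CpG density. Where 1 CpG lay within 100 bases, the ratio was 0.539 ± 0.0959 in aOPC and 0.468 ± 0.0371 in aOL (SD, n = 2). With 2 CpGs it was 0.539 ± 0.0786 and 0.466 ± 0.0167, and with 3 it was 0.52 ± 0.0471 and 0.451 ± 0.0638. With 4 or more CpGs the ratio was 1.02 ± 0.00793 and 1.13 ± 0.104. In that last class 46.9% of other genic sites lay in CpG islands, where their level was low, against 6.17% of receptor sites. In islands alone the ratio was 3.59 ± 2.24 in aOPC and 9.2 ± 1.21 in aOL, with 23 of the 30 receptor sites in Vmn2r29. The other 7 island sites, all Olfr, went the other way, at 0.584 ± 0.311 and 0.574 ± 0.409 of the other genic island level. With all island sites left out of both sides, the ratio of all receptor sites was 0.576 ± 0.0849 in aOPC and 0.509 ± 0.0449 in aOL.

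Other clustered families that are silent in most brain cells did not share one level. The 15 sites of Taar genes, which encode olfactory trace amine-associated receptors, averaged 0.768 ± 0.0651 CPM in aOPC and 0.667 ± 0.0162 CPM in aOL (SD, n = 2). The 8 sites of Tas2r bitter taste receptors averaged 0.833 ± 0.184 and 1.01 ± 0.205 CPM. The 111 sites of Defb genes, which encode antimicrobial beta-defensins, averaged 0.634 ± 0.0172 and 0.712 ± 0.0081 CPM. Only the 37 sites of Krtap genes, the keratin-associated proteins of hair, were below the receptors, at 0.372 ± 0.0546 and 0.363 ± 0.0352 CPM against 0.495 ± 0.0392 and 0.469 ± 0.0258 CPM. The formyl peptide receptor genes (Fpr) had 2 sites, at 0.523 ± 0.0444 and 0.638 ± 0.119 CPM.

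Along the chromosomes the receptor sites formed 52 groups more than 1 Mb apart, of which 19 held at least 20 sites. The level varied over several-fold between them. The group of 30 Olfr sites around Olfr56 (chr11:49053216-49160067) had the highest mean, at 1.17 ± 0.0752 CPM in aOPC and 1.12 ± 0.0743 CPM in aOL (SD, n = 2). Of these 30 sites, 24 were credited to Olfr56 and 22 of those lay outside its RefSeq model, so the rank rests mainly on sites outside that gene. The group of 42 Vmn2r sites at chr5:108805590-109444696 had the lowest in both populations, at 0.243 ± 0.0306 and 0.23 ± 0.063 CPM. Between 15 and 16 of the 19 groups lay below the mean of all other genic sites, depending on the library. Pooled over the 19 groups, receptor sites averaged 0.517, 0.464, 0.444 and 0.479 CPM, below the 0.715, 0.655, 0.636 and 0.644 CPM of 2117 other genic sites in the same spans. Group by group the order varied. Of 11 groups with at least 20 such neighbours, 4 were lower than them in all 4 libraries and 5 were higher in all 4. One of the lower groups held 37 Vmn2r sites at chr17:22551565-23474423, with 0.447 ± 0.0132 and 0.452 ± 0.0259 CPM, against 0.929 to 1 CPM at 41 neighbouring genic sites. One of the higher groups held 49 Olfr sites at chr11:58455141-59613508, with 1.05 ± 0.0136 CPM in aOPC and 0.751 ± 0.0143 CPM in aOL, against 0.592 to 0.728 CPM at 811 neighbours. This group contains Olfr325, a gene with a called difference.

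At 440 CCGG motifs of receptor genes both strands were listed. The counts of the 2 strands of a motif had a Spearman's rho across motifs of -0.124 to 0.00565 in the 4 libraries. The strands of a motif share a library and a sequence, and this is a description across sites only.

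Site by site, 392 of the 1633 receptor sites (24%) held at least 10 reads in at least 2 libraries and were tested, against 30.9% of other genic sites. The remaining 1241 were below this minimum, 304 of which were tested with a minimum of 5 reads. With edgeR's quasi-likelihood test over 443062 sites and Benjamini-Hochberg adjustment, 5 receptor sites were higher in aOL and 3 lower. Over all tested sites 1.21% were called higher and 1.08% lower, so that the receptor counts were close to the background. The median log2 fold change of aOL over aOPC was -0.13 at receptor sites and -0.01 at all sites, and without aOPC replicate 2 the receptor median was 0.01. Leaving out a library changed the counts, in some settings by over 1.5 times, as it did over all sites. Without aOPC replicate 2 there were 4 higher and 0 lower (1.45% and 0.211% of all sites tested). Without aOPC replicate 3 there were 3 higher and 16 lower of 313 (2.73% and 4.02% of all sites). Without aOL replicate 2 there were 1 and 2 (0.0779% and 1.08%), and without aOL replicate 3 also 1 and 2 (0.0729% and 1.23%).

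Olfr325, an odorant receptor gene at chr11:58580837-58581877, had reads at its coding-sequence site almost only in aOPC. The aOPC libraries held 32 and 45 reads there, whereas aOL held 1 and 0 (4.5, 2.63, 0.0628 and 0 CPM). The populations did not overlap, and the ratio of pooled levels was 137-fold lower in aOL, with an exact counting interval of 23.8 to 5463 (adjusted p = 8.14e-05, edgeR). The intronic site of the pseudogene Vmn2r-ps54 had 19 and 12 reads in aOPC against 0 and 1 in aOL, 55-fold lower with an interval of 9.16 to 2241 (adjusted p = 0.0063, edgeR). The intronic site of Vmn2r58 was read in all libraries, with 27 and 54 reads in aOPC compared with 21 and 34 in aOL. Its level was 3.47 ± 0.454 CPM in aOPC and 1.29 ± 0.044 CPM in aOL (SD, n = 2), a log2 fold change of -1.51 ± 0.36 (SE; adjusted p = 0.0399, edgeR), and it lost its call in 7 of 10 alternatives.

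Among the sites that rose in aOL, the Vmn2r81 site in an intron was without reads (0 and 0) in aOPC and had 32 and 37 reads in aOL. With a floor of 3 counts over both aOPC libraries, it was at least 13-fold higher in aOL (adjusted p = 0.00136, edgeR). The Vmn2r27 site, whose start has 2 copies, had 1 and 0 reads against 15 and 56, a 40-fold difference with an interval of 6.96 to 1603 (adjusted p = 0.0114, edgeR). Its adjusted p was 0.061 by DESeq2 and 0.0783 without aOPC replicate 3. The Olfr56 site had 0 and 1 reads against 13 and 20, 18.6-fold higher with an interval of 3.11 to 757 (adjusted p = 0.0388, edgeR). Its adjusted p was 0.486 by DESeq2, 0.0709 without aOPC replicate 2 and 0.0673 without aOPC replicate 3. The authors' annotation credits this site to an intron of Olfr56, but it lies outside the RefSeq model of that gene, which spans 1215 bases. The other 2 sites belong to Vmn2r29. At 5 of the 8 called sites 1 population had at most 1 read in each library. These 5, in Olfr325, Vmn2r-ps54, Vmn2r81, Vmn2r27 and Olfr56, and the intronic Vmn2r29 site passed the minimum of 10 reads only through the population in which they were high, and with 10 reads required in every library they were not tested.

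**Figure D4:**
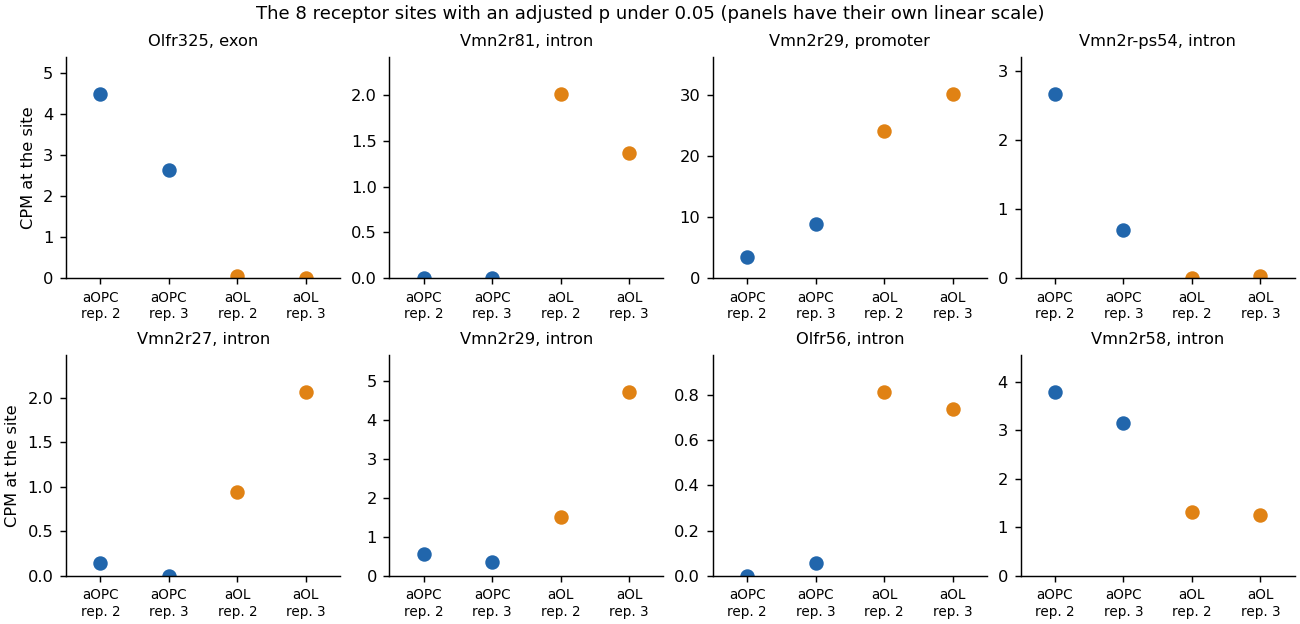
CPM (y axis, linear from 0, its own scale in each panel) of the 8 called receptor sites in the 4 RRHP libraries (x axis), with aOPC in blue and aOL in orange. Olfr325, Vmn2r-ps54, Vmn2r81, Vmn2r27 and Olfr56 have near-zero levels in 1 population, whereas Vmn2r29 and Vmn2r58 are read in both.

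Vmn2r29, at chr7:7212996-7278289 on the minus strand, held the receptor site with the highest level and was the only receptor gene with an RNA value. Its promoter site at chr7:7278447, 158 bases upstream of the transcription start, had 25 and 153 reads in aOPC and 385 and 818 in aOL. This was 6.23 ± 3.83 CPM in aOPC and 27.2 ± 4.28 CPM in aOL (SD, n = 2), a log2 fold change of 1.99 ± 0.32 (SE; adjusted p = 0.00186, edgeR). The call held in all 10 alternatives, but the log2 fold change was 1.63 without aOPC replicate 2 and 2.69 without aOPC replicate 3. On the opposite strand of the same CCGG there were 1, 0, 1 and 6 reads. The second called site, 579 bases downstream of the start, rose from 4 and 6 reads to 24 and 128 (log2 fold change 2.87 ± 0.63, adjusted p = 0.0237, edgeR). It passed the minimum of 10 reads only through aOL, and without aOPC replicate 3 its adjusted p was 0.0911. The other 22 island sites of the gene did not move together with the first: their summed level was 13.1 ± 1.53 CPM in aOPC and 13.3 ± 0.27 CPM in aOL (SD, n = 2). The gene body of 59 sites had 28.1 ± 1.15 and 31.3 ± 3.21 CPM, with a log2 fold change of 0.15 ± 0.14 (SE, adjusted p = 0.802, edgeR). With promoter sites added, the called one among them, the log2 fold change was 0.75 (adjusted p = 0.057, edgeR). The 23 island sites of Vmn2r29 made up most of the 30 receptor sites in islands, and the other 7 averaged 0.261, 0.0501, 0.0359 and 0.153 CPM.

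**Figure D5:**
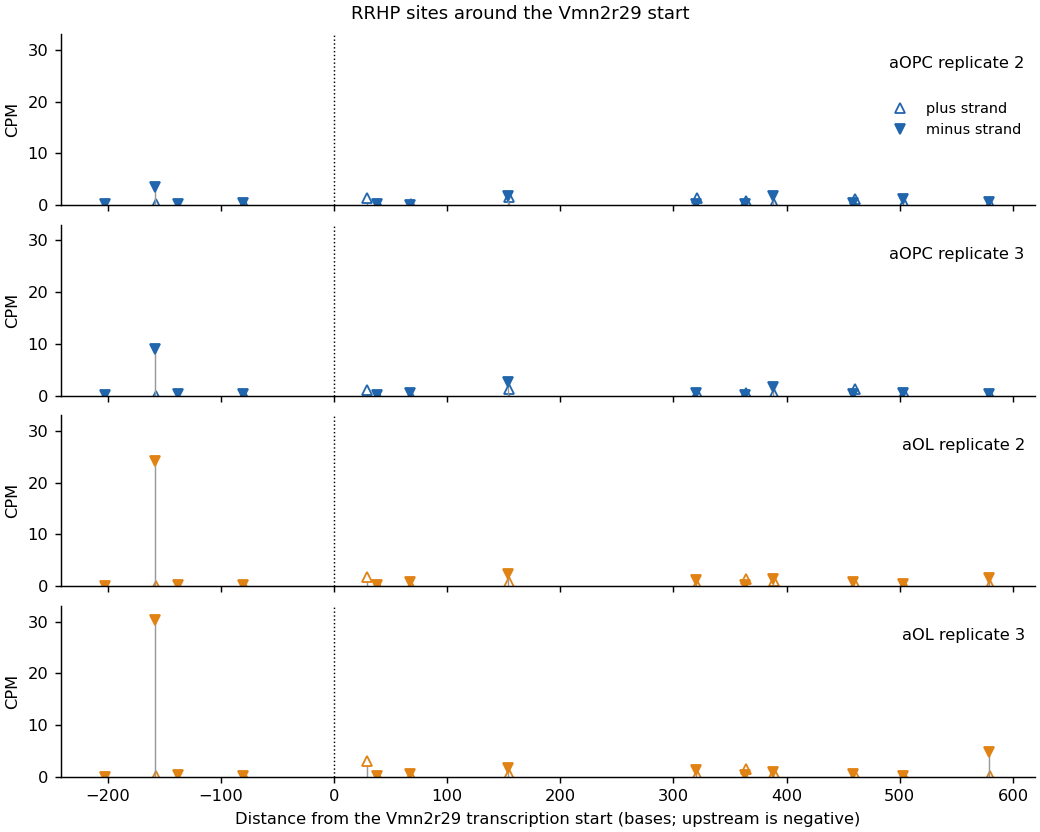
CPM (y axis) at each RRHP site by distance in bases from the Vmn2r29 transcription start (x axis, upstream negative, dotted line at the start) in the 4 libraries, with plus-strand sites as open and minus-strand sites as filled triangles. The site 158 bases upstream stands at 3.51 and 8.94 CPM in aOPC and at 24.2 and 30.2 CPM in aOL, and the sites around it stay below 5 CPM.

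Summed over gene bodies, 236 receptor genes had at least 1 exon or intron site, 46 had promoter sites alone, and 149 passed the filter on low counts. Of these, 0 were higher and 2 lower in aOL (edgeR, adjusted p under 0.05), against 0.162% higher and 0.687% lower of 18488 gene bodies. At an unadjusted p under 0.05, 1 was higher and 8 lower, against 2.82% and 4.48% of all gene bodies, and DESeq2 called 0 and 2 (0.178% and 0.909% of all gene bodies). Without aOPC replicate 2 there were 0 and 8 of 156 (1.27% and 2% of all gene bodies), and without aOPC replicate 3 there were 4 and 10 of 153 (10.3% and 12.3%). Leaving out aOL replicate 2 gave 0 and 1 (0.0691% and 0.393%), as did leaving out aOL replicate 3 (0.0694% and 0.374%). Receptor gene bodies had a median log2 fold change of -0.12, against 0 over all, and without 1 library it ranged from -0.24 to -0.01. Olfr325 was 1 of the 2, with 39 and 77 reads over 2 sites in aOPC and 1 and 0 in aOL (adjusted p = 0.00274, edgeR). Vmn1r1, a vomeronasal receptor gene at chr1:182157178-182158098, had 10 and 43 reads over 2 sites in aOPC and 0 and 0 in aOL, which is at least 31.3-fold lower (adjusted p = 0.0204, edgeR). Both genes passed the filter on low counts only through aOPC, and with 10 reads required in every library 0 receptor gene bodies were called. Vmn1r1 lost its call without aOL replicate 2 and without aOL replicate 3, where its log2 fold change was -8.10 and -7.75.

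The 10 gene bodies with the highest summed level were led by the pseudogene Vmn2r-ps11 (chr3:64632863-64844743), with 67.6 ± 9.23 CPM in aOPC and 60.5 ± 4.46 CPM in aOL (SD, n = 2) over 134 sites. Per site it held 0.478 CPM, near the mean of all receptor sites. Olfr56 followed with 32.6 ± 1.46 and 31 ± 2.91 CPM over 25 sites, of which 2 lay within its RefSeq model and 1 also in an exon of Olfr1396, then Vmn2r29, Vmn2r35, Vmn2r87, Vmn2r38, Vmn2r81, Olfr78, Vmn2r56 and Vmn2r59. Per site, Olfr78 stood highest of these, with 3.21 CPM over 4 sites. Olfr78 is known for expression outside the nose, in oxygen-sensing cells of the carotid body. Its summed level was 13 ± 1.69 CPM in aOPC and 12.6 ± 0.419 CPM in aOL, with a log2 fold change of -0.07 ± 0.18 (SE; adjusted p = 0.925, edgeR). None of the 10 was called, their adjusted p ranging from 0.707 to 0.958, and without aOPC replicate 3 Vmn2r56 had an adjusted p of 0.00413.

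Of the 6 receptor sites with the highest mean level, the Vmn2r38 site had 374 copies of its start in the reference and the Olfr1428 promoter site had 64. The 3 in introns of Vmn2r-ps11 are shown because, beside the Vmn2r29 site, they had the highest levels with at most 2 copies of their start.
Vmn2r-ps11, chr3:64747893-64747934, minus strand: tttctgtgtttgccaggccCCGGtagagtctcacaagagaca
Vmn2r-ps11, chr3:64747789-64747830, plus strand: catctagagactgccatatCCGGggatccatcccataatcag
Vmn2r-ps11, chr3:64669612-64669653, minus strand: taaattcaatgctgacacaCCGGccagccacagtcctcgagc
The first held 8.58, 7.77, 8.42 and 7.76 CPM in aOPC replicates 2 and 3 and aOL replicates 2 and 3, and did not differ beyond its spread (adjusted p = 0.937, edgeR). The second held 9.7, 5.61, 5.28 and 4.77 CPM (adjusted p = 0.526) and the third 7.59, 6.66, 3.89 and 6.62 CPM (adjusted p = 0.693, edgeR).

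In RNA, Vmn2r29 was the only receptor gene among 11315 genes listed. The files hold log2 values without read counts, and how the authors chose the genes listed is not given in the sources used here. In bulk samples, fewer cells of a type and less RNA per cell cannot be told apart. The aOPC libraries gave log2 values of 7.26 and 7.57 and the aOL libraries 7.71 and 7.51, above those of 12.6 to 15.7% of the genes listed. The difference was 0.20 ± 0.23 (SE; adjusted p = 0.612, limma), and the libraries of the populations overlapped. At the threshold used, 0 of 1 receptor gene was called, against 0.0808% of 11133 genes tested. This background rests on both aOPC libraries: without aOPC replicate 2, 18.4% of all genes were called higher and 17.9% lower, and without aOPC replicate 3, 12% and 9.28%.

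Of 18 genes of olfactory signalling, 9 were listed in RNA, and 0 passed the test in either direction (1 lower at an unadjusted p under 0.05, against 12.1% higher and 12% lower of all RNA genes). Cnga2, Cnga4 and Cngb1, the subunits of the olfactory cyclic nucleotide-gated channel, were not listed, nor were Rtp1 and Rtp2, which carry odorant receptors to the membrane. Gnal, the olfactory G protein alpha subunit, had log2 values of 8.22, 8.06, 7.85 and 7.64. All 5 genes of vomeronasal signalling were listed and 0 passed the test (1 at an unadjusted p under 0.05, B2m, with a difference of -1.27 and an adjusted p of 0.164, limma). Trpc2, the cation channel of vomeronasal neurons, had log2 values of 9.72, 9.26, 9.43 and 9.49. Of 18 genes of receptor choice and silencing, 11 were listed and 0 passed the test (2 at an unadjusted p under 0.05). Cbx5, which encodes the heterochromatin protein HP1 alpha, had log2 values of 11.76 and 12.15 in aOPC, with 12.99 and 12.89 in aOL and a difference of 0.98 ± 0.23 (SE; adjusted p = 0.145, limma). Lbr, the lamin B receptor that tethers heterochromatin to the nuclear envelope, had 12.71, 12.89, 12.97 and 13.02. Lhx2 and Ebf1 to Ebf4, transcription factors of olfactory neurons, were not listed. Without aOPC replicate 2, where the calls over all genes also rose, the calls were 1 higher and 1 lower for olfactory signalling, 1 and 1 for vomeronasal signalling and 2 and 2 for choice and silencing. Without aOPC replicate 3 they were 1 and 1, 0 and 0, and 1 and 0. In RRHP the gene bodies of the olfactory signalling list held 0.697, 0.749, 0.745 and 0.758 CPM per site, and those of the silencing list 0.651, 0.658, 0.669 and 0.643 CPM, both above the receptor gene bodies at 0.525, 0.47, 0.441 and 0.474 CPM. Among the gene bodies of these lists, 0 of 18 for olfactory signalling and 0 of 4 for vomeronasal signalling were called, and 1 of 17 for choice and silencing, the histone demethylase gene Kdm1a, fell in aOL (edgeR, adjusted p under 0.05), against 0.162% higher and 0.687% lower of all gene bodies.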

How the data were processed

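RRHP and RNA-sequencing libraries of sorted aOPC and aOL were analysed, 2 per population and assay. For RRHP, the authors aligned reads to mm10 and deposited a raw read count for each strand of each CpG site, with promoter, exon, intron and CpG island columns. Aligner, duplicates and site filter are not given in the sources used here. For RNA, the authors deposited log2 values per gene, which had near-equal quantiles across libraries (BWA, featureCounts and DESeq2, per the study's methods). On values of this kind a shift shared by most genes would not be visible.

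Sites were joined over the 4 libraries, a site missing from a pair of libraries counting 0. All listed sites lay at a CCGG of GRCm38. Depth was 7113237 to 27057859 counts. Sites that held 10 or more reads in 2 or more libraries, and gene-body sums after filterByExpr, were tested with edgeR 4.0.16 (quasi-likelihood, TMM on library totals, adjusted p under 0.05), with DESeq2 1.42.0 as an alternative. RNA was tested with limma 3.58.1 (genes with log2 values of 5 or more in 2 or more libraries). All tests ran over all features, on code tested on simulated data. R 4.3.3, Python, numpy, pandas, scipy and matplotlib were used.

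The members, lists and tests were chosen with earlier results of these data known. Named were all receptor genes with a called site or gene body, the 10 highest gene bodies, the 6 highest sites read in every library, and every receptor gene in RNA. Levels are means with SD over libraries, without a test. A first replicate was not analysed here.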

Additional observations from a re-analysis of the deposited data

How the results depend on the processing

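The ratio of receptor to other genic level stayed below 1 in both populations under the alternatives listed here, although within CpG islands (3.59 and 9.2), with 4 or more CpGs in 100 bases (1.02 and 1.13) and at repeated starts in introns outside islands (1.06 and 1.02) it was above 1, and at all repeated starts it was 1.02 and 0.984. In aOPC it moved from 0.687 to 0.76 with only sites tested singly, 0.576 without CpG islands, 0.776 with single-copy starts, 0.535 with single-copy starts in introns outside islands, and 0.602 over every CCGG strand position of RefSeq genes. In aOL it moved from 0.644 to 0.724, 0.509, 0.719, 0.431 and 0.524 under the same settings, of which the last 3 were chosen after seeing the data. Leaving out a library gave 0.639 to 0.735 in aOPC and 0.608 to 0.68 in aOL. The share of receptor sites with reads, 70.5% in aOPC and 78.4% in aOL, became 63.6% and 60.7% after subsampling to the smallest library, and 85.4% and 92.4% over sites listed in both pairs. Without a library it was 66.9 to 74% and 72.6 to 84.1%.

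Of the 5 sites higher in aOL, DESeq2's Wald test called 3 (0.525% of all sites), and a minimum of 10 reads in every library left 1 of 125 (0.134% of all sites). Leaving out a library gave 1 to 4. For the 3 lower sites, at least 5 reads in at least 2 libraries gave 11 of 696 (1.58%, against 1.27% of all sites), the minimum in every library 0 (0.153% of all sites), and leaving out a library 0 to 16. For gene bodies, leaving out a library gave 0 to 4 higher and 1 to 10 lower (0.0691 to 10.3% and 0.374 to 12.3% of all gene bodies), and the minimum in every library called 0 of 101 lower (0.555% of all). The cause of these shifts was not tested, except that the minimum in every library removes sites with 0 reads in a population. With 1 library left in a population, that library is assumed to vary like the others. In RNA, 0 receptor genes were called under all alternatives.

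Replicate numbers were shared by the populations but mark no common animal, and deviations of same-numbered libraries correlated at -0.0574 over tested sites. With the replicate block, 5 sites were higher and 3 lower (1.69% and 1.25% of all sites), with 0 and 2 gene bodies (0.249% and 0.882% of all). The RNA difference of Vmn2r29 had an adjusted p of 0.775 with the block and 0.612 without it (limma). No receptor count changed. Among RNA markers the block called Cldn5 higher and 1 of 5 OPC markers lower, with 30 higher and 97 lower of all genes. The minimum of 10 reads left 1241 of 1633 receptor sites untested, and a minimum of 5 reads took in 304 of these.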
